A study of Mus musculus with 32 samples.

Results

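ETR-tKO cells growing in N2B27 without inhibitor were compared with ER-dKO cells growing in CHIRON. The comparison rests on 6 of the 32 RNA-seq libraries of the series, 3 per group, which were chosen by the genotype and culture condition in the sample labels. Both mutants are mouse embryonic stem cells (ESCs) made from RGd2, a reporter line in which the *Rex1* (*Zfp42*) locus drives a destabilized GFP. In ER-dKO cells *Etv5* and *Rbpj* were targeted with pairs of Cas9 guide RNAs, and in ETR-tKO cells *Tcf3* was targeted as well. *Etv5* encodes an ETS-family factor downstream of ERK signaling, *Rbpj* encodes the DNA-binding partner of Notch, and *Tcf3* is listed here under its current symbol *Tcf7l1*, because the symbol *Tcf3* now names an unrelated gene. Each library came from a different clonal line. ER-dKO libraries 10, 11 and 12 are the lines (Ec1)Rc43, ERc7 and ERc9, and ETR-tKO libraries 13, 14 and 15 are the lines (ETc1)Rc53, (Tc1)ERc2 and (Tc1)ERc10, so that libraries 14 and 15 share a prefix in their names. All 6 cultures were at passage 5 and contained neither LIF nor a MEK inhibitor, and the lines had been expanded in CHIRON with LIF before. Unedited RGd2 cells, with 3 libraries per condition, are given beside some values: in 2i, which combines CHIRON with a MEK inhibitor, at passage 5, in CHIRON at passage 2, and in N2B27 alone for 16 h or 72 h. Every ETR-tKO library lacks CHIRON and every ER-dKO library contains it, so the loss of TCF3 and the absence of GSK3 inhibition cannot be told apart in this comparison.

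β-catenin is destroyed in unstimulated cells by a complex of Axin, APC, casein kinase 1 and GSK3. CHIRON (CHIR99021) blocks GSK3, so that β-catenin accumulates, joins TCF/LEF factors on DNA and activates Wnt targets. TCF3 acts in ESCs mainly as a repressor that occupies genes of the naive pluripotency network, and β-catenin relieves this repression. Loss of TCF3 and inhibition of GSK3 therefore both lift repression by TCF3, but only the latter acts by stabilizing β-catenin. The level of β-catenin protein in these cultures was not measured here.

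The 6 libraries held between 25842406 and 71439411 counts on genes. Spike-in transcripts amounted to 1.27% ± 0.056 (SD, n = 3) of the gene counts in ETR-tKO and 1.24% ± 0.046 (SD, n = 3) in ER-dKO, a difference smaller than the spread between libraries (two-sided exact permutation p = 0.60, the smallest possible with these group sizes being 0.10). No library repeated another, since counts of libraries of the same group differed by a chi-square of 5.18 to 29.6 per gene, several times the sampling noise. The median absolute log2 difference between libraries was 0.085 to 0.10 within ER-dKO and 0.084 between ETR-tKO libraries 14 and 15, but 0.22 and 0.19 between library 13 and these. Per the methods the 3 lines of a genotype were derived independently, but the shared prefix of libraries 14 and 15 leaves their independence uncertain. The spread behind the p-values was estimated over all 32 libraries of the series, so it is not only the spread between these 6 lines. The 3 RGd2 libraries of a condition come from the parental line and 1 clonal line.

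The guides mark which parts of the targeted genes were cut, and they are shown because each pair spans only a short stretch of exon. Lower-case letters are the protospacer and capitals the adjacent PAM read from the Gencode transcript.
*Tcf7l1*, exon 1 (chr6:72788844-72788863, plus strand): tcagctcgtcgttcgctccgAGG
*Tcf7l1*, exon 3 (chr6:72788228-72788247, plus strand): gagacaggggtccgttggagAGG
*Etv5*, exon 8 (chr16:22401804-22401823, minus strand): cgcagctccgccaccccttcAGG
*Etv5*, exon 9 (chr16:22399336-22399355, plus strand): gaaatacccgcctctcatgtAGG
*Rbpj*, exon 5 (chr5:53645980-53645999, minus strand): tgacctttatccgcttgctgAGG
*Rbpj*, exon 7 (chr5:53649718-53649737, minus strand): gcttgacagtctgcccgtaaTGG
All 6 protospacers lie in coding sequence of GRCm38. The stretch between the cuts holds 7.87% of the annotated exon bases of *Tcf7l1*, 3.97% of those of *Etv5* and 2.02% of those of *Rbpj*, so most reads of a gene lie outside the targeted stretch and the counts do not by themselves test the deletion.

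*Tcf7l1* (ENSMUSG00000055799.13) was lower in the triple mutant. Its normalized count was 29.1, 120.4 and 107 in ETR-tKO libraries 13, 14 and 15, against 464, 423 and 458 in ER-dKO libraries 10, 11 and 12. The groups did not overlap, and library 13 had the least. The log2 fold change was −2.45 (standard error 0.24, edgeR quasi-likelihood test, Benjamini-Hochberg adjusted p = 1.34e-10). For comparison, RGd2 cells had 516 ± 67.2 (SD, n = 3) in 2i at passage 5 and 213 ± 27.2 (SD, n = 3) after 2 passages in CHIRON. *Etv5*, which was targeted in both groups, had 2547, 1112 and 1843 in ETR-tKO and 1954, 1397 and 1684 in ER-dKO, with overlapping groups, and 10959.5 ± 803 (SD, n = 3) in RGd2 in 2i. *Rbpj* had 1559, 2281 and 2348 in ETR-tKO and 1138, 1307 and 3489 in ER-dKO. ER-dKO library 12 thus had more *Rbpj* than any ETR-tKO library, and its count lay above the RGd2 mean in 2i of 3023 ± 314 (SD, n = 3). The log2 fold change of *Rbpj* was 0.06 (not called) with library 12 and 0.76 (called higher) without it.

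Of 19037 genes tested, 11637 reached the FPKM minimum, which is an average of 1 in ETR-tKO or in ER-dKO. FPKM here is the gene count scaled to exon length and library size. Among these, 1696 were called higher in ETR-tKO (14.6% of 11637) and 1144 lower (9.83%), at an adjusted p under 0.05. These shares over all genes, 14.6% higher and 9.83% lower, are the background for the counts of each gene list below. The lists and their members were chosen with earlier results of these data known. A list count beside these shares is therefore a description and no test of the list. Changes of at least 2-fold were more often upward, with 539 genes higher (4.63%) and 183 lower (1.57%). The libraries of both groups did not overlap for 47.4% of the 11637 genes and for 97.5% of the called genes. The median log2 fold change over the 11637 genes was 0.01. The balance of directions depended on the scaling: 59.7% of the calls were higher with the spike-in scaling, 48.8% with median-of-ratios scaling on the genes and 44.3% with TMM normalization (1912 higher, 2407 lower), although TMM moved the median gene by only −0.05. The number of lower genes also rested on library 13, without which 722 genes were lower and 1668 higher. A core of 1111 higher and 589 lower genes was called under both scalings and without any single library.

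Library 13 differed from the others on chromosome 6, which also carries *Tcf7l1*. The median level of its genes there was 0.39 above the mean of the other ETR-tKO libraries on the log2 CPM scale, whereas its other autosomes lay between −0.022 and 0.035. The rise was limited to the distal part of the chromosome. The 303 genes from 80 Mb onward had a median of 0.56, or 1.47-fold, and the 193 genes before 80 Mb had a median of 0.02. In windows of 5 Mb the median was 0.09 from 70 to 75 Mb, the window that holds *Tcf7l1*, and 0.63 from 80 to 85 Mb. In the ER-dKO libraries the medians of both stretches lay between −0.019 and 0.033. Libraries 14 and 15, whose comparison includes library 13, had −0.25 and −0.30 from 80 Mb onward. Of the 303 distal genes, 71 were called higher in ETR-tKO, and 31 were called higher without library 13. Elsewhere on chromosome 6 these numbers were 28 and 29 of 193. The named genes of chromosome 6 are therefore marked where they occur.

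**Figure D1:**
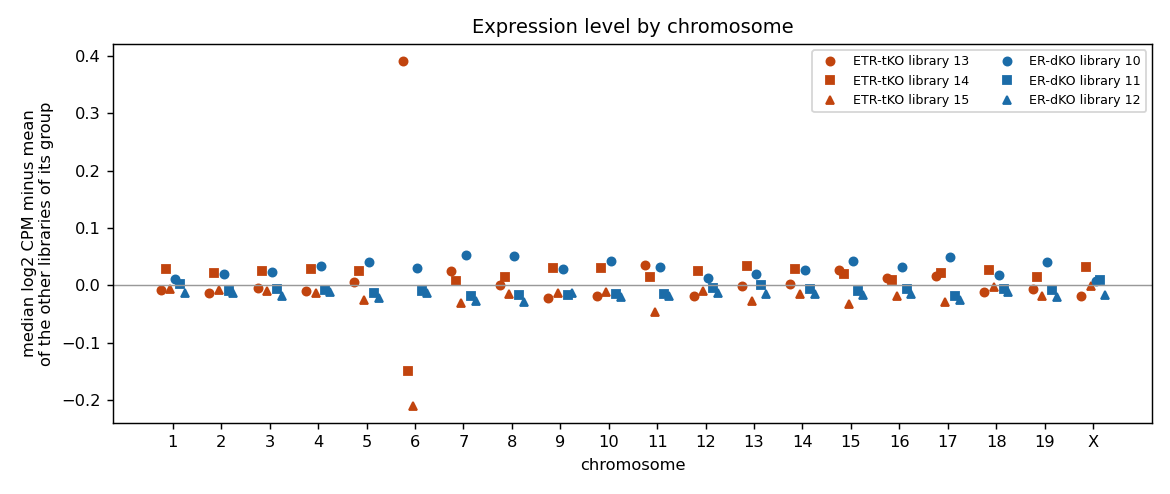
Median log2 CPM of the expressed genes of each chromosome in each of the 6 libraries, minus the mean of the other libraries of the same group; red symbols are ETR-tKO and blue symbols ER-dKO. Library 13 stands 0.39 above the other ETR-tKO libraries on chromosome 6, libraries 14 and 15, which are compared with a mean that includes library 13, stand at −0.15 and −0.21 there, and every library lies between −0.047 and 0.053 on the other autosomes.

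Wnt/β-catenin targets were lower in ETR-tKO. Of 25 listed targets, 14 passed the FPKM minimum, and of these 11 were lower and 1 was higher, the median log2 fold change being −0.84 beside 0.01 for all genes. The 5 that differed most are transcription factors that β-catenin is known to induce. *Nkx1-2*, a homeobox gene of the caudal epiblast, had 94.1, 74.2 and 71.6 normalized counts in ETR-tKO and 3487, 3218 and 3617 in ER-dKO. Every ETR-tKO library was far below every ER-dKO library, with a log2 fold change of −5.41 (standard error 0.14, edgeR adjusted p = 1.93e-28). *Sp5*, a zinc-finger factor and direct β-catenin target, had 9.1, 4.3 and 0 in ETR-tKO and 242, 242 and 219 in ER-dKO. The 19 reads of the 3 ETR-tKO libraries against 1280 in ER-dKO gave a ratio of 47.8 in favor of ER-dKO (95% exact interval 30.5 to 79.7, counting error only), and the fitted log2 fold change was −5.55, or −6.91 without library 13. *Cdx2*, a caudal homeobox gene, had 3.0, 2.1 and 3.2 against 150.1, 111 and 109, a ratio of 42.3 (interval 23.5 to 85.1). *T* (brachyury), a mesoderm regulator, had 17.0, 2.1 and 9.6 against 326, 259.6 and 296, a ratio of 26.2 (interval 19.3 to 36.4), and its fitted log2 fold change was −4.76, or −5.50 without library 13. *Cdx1*, another caudal homeobox gene, had 31.6, 44.1 and 38.2 against 490.0, 395 and 438, with a log2 fold change of −3.56 (standard error 0.23, edgeR adjusted p = 1.14e-15). None of these genes overlapped between the groups, nor did 47.4% of all genes past the FPKM minimum. All 5 are also among the 10 largest decreases given below, which were ranked only among genes without overlap.

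Feedback components of the pathway differed less. *Axin2*, which promotes β-catenin destruction, had 505, 729.7 and 682 in ETR-tKO and 3089.9, 2666 and 2784 in ER-dKO, a log2 fold change of −2.16 (standard error 0.14, edgeR adjusted p = 1.39e-15). *Notum*, which inactivates Wnt ligands, and *Znrf3*, which removes Frizzled receptors from the cell surface, were lower by −0.72 and −0.79 on the log2 scale. *Tcf7* (TCF1), an activating TCF factor, was lower by −0.88. *Ccnd1* (−0.34, edgeR adjusted p = 0.031) and *Tnfrsf19* (−0.38, edgeR adjusted p = 0.038) were called lower, but each kept its call in only 1 of the 6 fits that leave out a library. *Dact1*, a Dishevelled-binding modulator of the pathway, was the exception, with 246, 251 and 254 in ETR-tKO against 37.5, 49.0 and 41.3 in ER-dKO, a log2 fold change of 2.54 (standard error 0.19, edgeR adjusted p = 1.13e-13). *Apcdd1* and *Fzd7* were not called (−0.36 and 0.25). *Fzd7* was at 0.38 without library 13 and at 0.41 without libraries 13 and 12. In each of these settings 2 targets of the list were called higher.

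**Figure D2:**
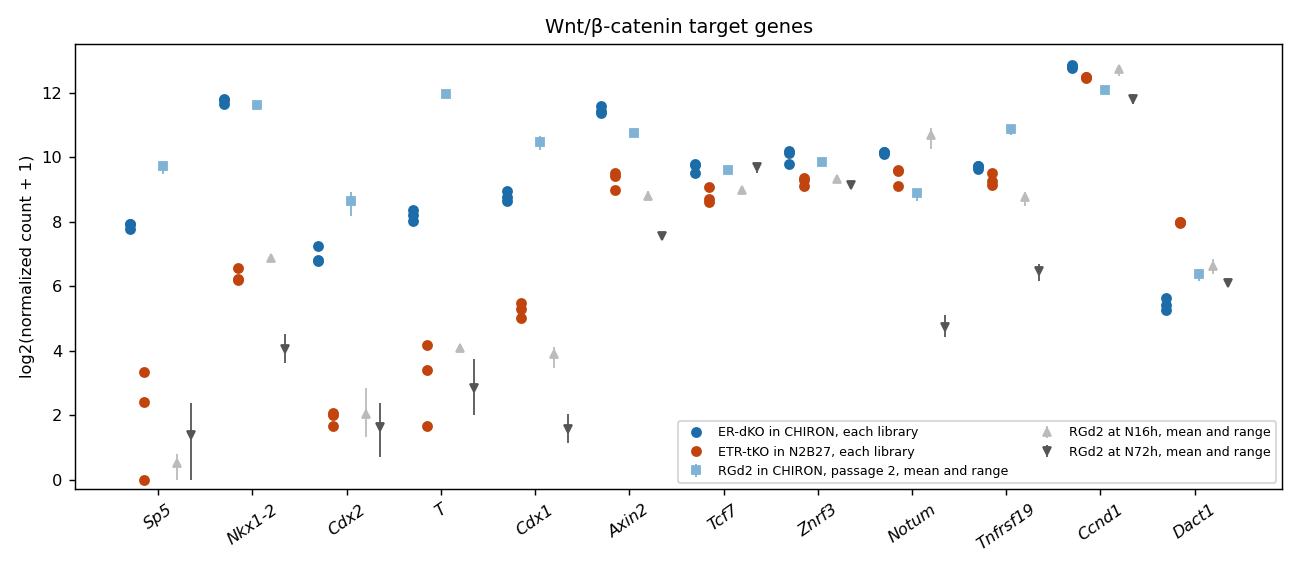
Normalized counts of 12 Wnt/β-catenin targets on a log2 scale after adding 1; blue and red dots are the ER-dKO and ETR-tKO libraries, and squares and triangles are means of RGd2 cells with the range of 3 libraries. *Sp5*, *Nkx1-2*, *Cdx2*, *T* and *Cdx1* are low in ETR-tKO and in RGd2 cells without inhibitor, and *Dact1* is the target that is higher in ETR-tKO.

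Promoter sequence was examined for the TCF/LEF core motif, searched as CTTTG followed by AA, AT, TA or TT on either strand in the RefSeq windows from 250 bases before to 50 bases after each start (GRCm38.p6). Of the 25 targets, 18 had a window, and 7 of these 18 held a match in at least 1 window (38.9%), beside 18.9% of all 27025 genes. Counted by window, 26.9% of the 26 target windows and 16.9% of all 32851 windows held a match. *Cdx1* had no window and was not searched, and the windows of *Nkx1-2*, *Cdx2* and *Axin2* held no match. Those of *Sp5* and *T*, the targets among the 5 above with a match, are shown up to their start sites with matches in capitals.
*Sp5* (chr2:70474673-70474922, plus strand): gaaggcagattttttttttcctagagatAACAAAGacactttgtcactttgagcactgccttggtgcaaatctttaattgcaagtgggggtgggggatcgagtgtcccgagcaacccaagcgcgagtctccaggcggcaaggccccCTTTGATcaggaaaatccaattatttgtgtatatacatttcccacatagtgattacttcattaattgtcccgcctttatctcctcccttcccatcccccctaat
*T* (chr17:8434173-8434422, plus strand): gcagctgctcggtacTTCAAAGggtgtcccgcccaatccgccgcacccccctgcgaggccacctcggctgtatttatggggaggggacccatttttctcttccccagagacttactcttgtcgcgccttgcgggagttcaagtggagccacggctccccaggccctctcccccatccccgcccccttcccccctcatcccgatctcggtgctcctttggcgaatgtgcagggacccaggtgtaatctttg
The matches in *Sp5* begin 222 and 104 bases before the start and the match in *T* begins 235 bases before it. A match of this length is a description of the sequence and no evidence of binding.

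The Wnt targets were also set beside the difference between RGd2 cells kept in N2B27 for 72 h (N72h) and RGd2 cells kept for 2 passages in CHIRON. Those cultures are not matched to the mutants in passage or time. They also differ in naive gene expression, with a summed FPKM of the 18 naive genes of 494 to 531 in CHIRON and 111 to 121 at N72h, against 1247 to 1255 in ER-dKO and 1093 to 1242 in ETR-tKO. The summed FPKM of 11 mesendoderm markers was 39.5 to 47.2 in RGd2 in CHIRON and 12.04 to 12.81 in ER-dKO. The part of these differences in the test was not tested, and the 4 groups share no library. The difference of the 2 log2 changes was tested in the same edgeR fit for 20 targets that passed the FPKM minimum in any of the 4 groups. It was called higher for 12 targets, meaning a smaller fall or a larger rise in the mutants, and lower for 2. Of all genes past the FPKM minimum, 16.1% and 8.02% were called in these directions. Among the 12, *Sp8*, *Msx1*, *Msx2* and *Lef1* were under the FPKM minimum in both mutants. These genes entered the test only through the RGd2 groups, so their part in the count says little about the mutants. *Tnfrsf19*, a TNF receptor family member, changed by −4.44 on the log2 scale in RGd2 and by −0.38 in the mutants. *Notum* changed by −4.09 in RGd2 and by −0.72 in the mutants, with a mean normalized count of 25.9 at N72h and 693 in ETR-tKO. At N72h *Sp5* had 0 to 4 reads per library, *Cdx1* 1 to 3 and *T* 2 to 12, so the size of their change in RGd2 is poorly determined. *Axin2* changed by −3.18 in RGd2 and −2.16 in the mutants. *Sp8*, a relative of *Sp5*, was at 369 in RGd2 in CHIRON but only at 15.9 in ER-dKO in CHIRON, and *Lef1*, a β-catenin partner and target, was at 3377 and 97.1. *Tcf7* was at 770 and 823 in the RGd2 groups, whereas it was lower in ETR-tKO than in ER-dKO. *Cdx2*, *Znrf3*, *Nkd1*, *Nkd2*, *Ccnd1* and *Apcdd1* did not pass this test.

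Among Wnt ligands, receptors and secreted antagonists, 18 of 45 listed genes passed the FPKM minimum, of which 8 were higher and 2 lower, with a median log2 fold change of 0.11. The ligand gene *Wnt6* had 55.8, 73.1 and 87.6 in ETR-tKO and 5.4, 3.7 and 7.3 in ER-dKO. *Wnt8a*, another ligand, had 303, 139.7 and 136 against 36.9, 31.8 and 42.9, with the highest value in library 13. *Porcn*, the acyltransferase that lipidates Wnt proteins, was higher by 1.52 on the log2 scale, and the receptor gene *Fzd3* by 1.36. *Wnt5b*, a ligand of non-canonical signaling on distal chromosome 6, was lower (130.5, 50.5 and 42.2 against 392, 347 and 369, a log2 fold change of −2.26, or −2.998 without library 13), as was the receptor gene *Fzd10* (−1.17). Of 16 TCF/LEF factors and β-catenin partners past the minimum, none was higher and 3 were lower (*Tcf7*, *Bcl9* and *Amer1*), and 1 gene of the list was lower and 1 higher without library 13. The median of the 16 was −0.05.

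All 18 listed naive pluripotency genes passed the FPKM minimum. Of these 2 were higher (11.1%, beside 14.6% of all genes), 2 were lower (11.1%, beside 9.83%) and 14 were not called, with a median log2 fold change of 0.003. *Nanog*, on distal chromosome 6, had 20714, 21967 and 21595 normalized counts in ETR-tKO and 20199.6, 20236 and 20669.7 in ER-dKO, a log2 fold change of 0.07 (standard error 0.10, edgeR adjusted p = 0.69). *Esrrb*, a well-known target of TCF3 repression, had 13058, 17989.8 and 16543 against 15480.3, 15046 and 15527 (log2 fold change 0.05, standard error 0.11, edgeR adjusted p = 0.82). *Tfcp2l1* had 12819.8, 19599 and 18195 against 16858, 17417 and 17784. The ER-dKO libraries lay within the ETR-tKO range for these last genes, and library 13 was the lowest. RGd2 cells at N72h had 1697 ± 185 (SD, n = 3) for *Nanog*, 832 ± 47.4 for *Esrrb* and 607 ± 85.2 for *Tfcp2l1*, below every mutant library. *Nr0b1* (DAX1) was higher, with 1329, 1919 and 1754 against 819.7, 907 and 830.2 (log2 fold change 0.97, standard error 0.13, edgeR adjusted p = 1.33e-07), and *Prdm14*, a repressor of DNA methylation genes, was higher by 0.57. *Tdh*, the threonine dehydrogenase of mouse ESCs, was lower, with 6609, 9657 and 9672 against 16124, 15464 and 16660.5 (−0.90, standard error 0.11, edgeR adjusted p = 3.39e-08). *Tbx3* was lower by −0.46, a call that held in 3 of the 6 fits that leave out a library. With TMM, 3 naive genes were higher and 6 lower, *Klf4*, *Klf5*, *Nr5a2* and *Tcl1* joining the lower genes.

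Of 9 general pluripotency genes, 4 were higher and none lower, with a median of 0.28, and 2 were higher without library 13. *Pou5f1* (OCT4) and *Sox2* were not called (0.07 and 0.17). *Foxd3*, a forkhead factor, had 374, 456 and 465 in ETR-tKO against 132, 159.7 and 143 in ER-dKO (log2 fold change 1.57, standard error 0.24, edgeR adjusted p = 1.67e-06). *Lin28b*, an RNA-binding inhibitor of let-7 maturation, was higher by 1.10 (called in 5 of 6 fits without a library), and *Utf1* was higher by 0.45 but kept its call in only 1 of 6 such fits.

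Formative genes were higher in ETR-tKO. Of 9 formative genes past the FPKM minimum, 8 were called higher and none lower, with a median of 0.51, and 7 were higher without libraries 13 and 12. *Pou3f1* (OCT6), a POU factor induced on leaving the naive state, had 258, 93.5 and 127 in ETR-tKO and 5.4, 7.1 and 10.5 in ER-dKO, a log2 fold change of 4.43 (standard error 0.34, edgeR adjusted p = 1.22e-13). *Dnmt3b*, a de novo DNA methyltransferase, had 8915, 6491 and 6435 against 2175, 2341 and 2427 (1.65, standard error 0.13, edgeR adjusted p = 1.70e-13). *Pim2*, a kinase gene, had 1591, 874 and 964 against 355, 350.5 and 364, and *Sall2*, a zinc-finger gene, had 771, 578 and 628 against 273, 238 and 252. For all 4 genes library 13 was the highest and no ETR-tKO library overlapped ER-dKO, as for 47.4% of all genes past the FPKM minimum. *Pou3f1* is also among the 10 largest increases given below, which were ranked only among genes without overlap. *Otx2* was not called (0.30, edgeR adjusted p = 0.065), and *Fgf5* and *Sox3* were under the FPKM minimum in both groups. *Lef1*, which the study also names as a formative marker, belongs to the Wnt target list and not to this one. It was under the FPKM minimum as well, with a mean normalized count of 64.2 in ETR-tKO and 97.1 in ER-dKO (log2 fold change −0.55). Both *Pou3f1* and *Dnmt3b* were lower in every ETR-tKO library than the mean of RGd2 at N72h, where *Pou3f1* was at 1615 ± 176 (SD, n = 3) and *Dnmt3b* at 53798 ± 3644 (SD, n = 3).

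**Figure D3:**
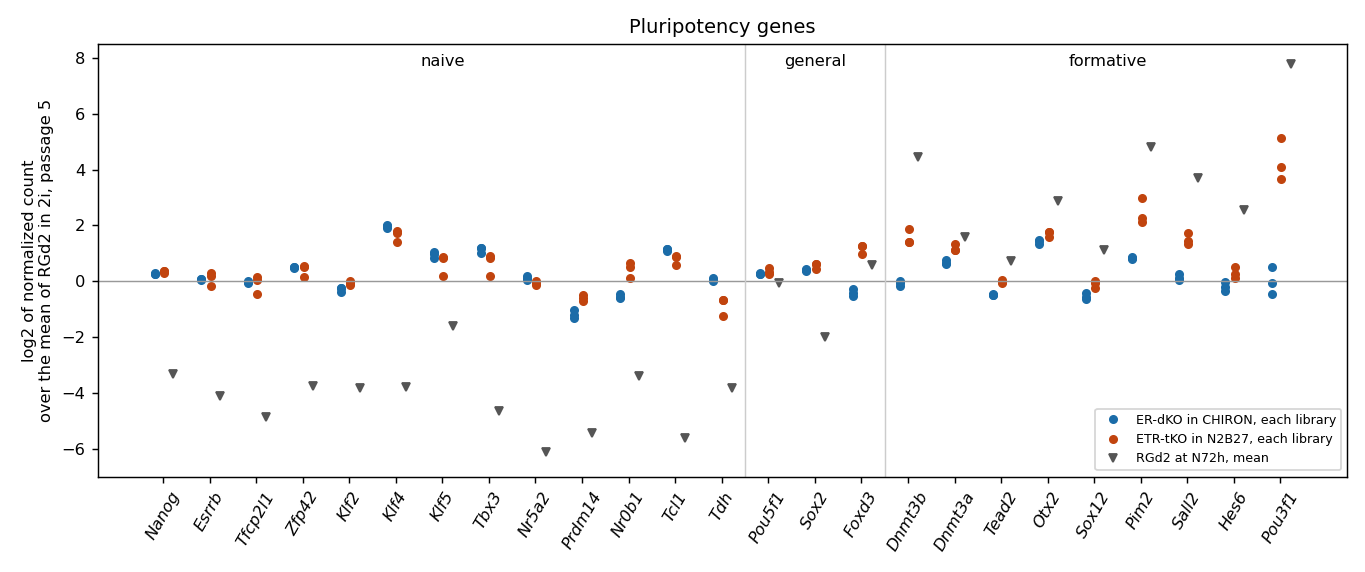
Log2 ratio of the normalized count to the mean of RGd2 cells in 2i at passage 5, for naive, general and formative genes; blue and red dots are the ER-dKO and ETR-tKO libraries and triangles the mean of RGd2 at N72h. Naive genes of both mutants lie near the level in 2i and far above N72h, and formative genes such as *Pou3f1* and *Dnmt3b* lie higher in ETR-tKO than in ER-dKO but below N72h.

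*Pax6*, a paired homeobox factor of neural and eye development, had 718, 721 and 702 in ETR-tKO and 4.0, 8.2 and 9.7 in ER-dKO, a log2 fold change of 6.58 (standard error 0.31, edgeR adjusted p = 2.50e-19). *Sox21*, a SoxB2 factor, had 353, 675 and 623 against 18.8, 21.7 and 22.7. *Neurod1*, a basic helix-loop-helix factor of neurons, had 128, 103 and 97.9 against 1.3, 3.0 and 7.3, and *Crmp1*, which acts in axon guidance, had 1136, 826 and 826 against 38.2, 41.1 and 48.6. *Fgf1* (135, 257 and 276 against 0.67, 5.2 and 0.81, with a log2 fold change of 6.23, or 8.02 without library 11), *Atp1a4* (146, 207 and 205 against 6.7, 3.0 and 1.6), *Nkx2-9* (145, 103 and 111 against 6.7, 3.0 and 4.9), *Slc18a3*, the vesicular acetylcholine transporter (276, 273 and 263 against 14.7, 9.0 and 15.4), and *Htra1*, a secreted protease (1026, 1053 and 969 against 55.6, 63.6 and 42.1), complete with *Pou3f1* the 10 largest increases by the ranking rule. This rule took genes called under both scalings and without each library, whose groups did not overlap. It left out symbols of Gm with digits or ending in Rik, and genes under 10 counts in every library of the higher group. The 10 genes named were not at one level in differentiating RGd2 cells. *Pax6* was at 415 ± 155 (SD, n = 3) and *Fgf1* at 249 ± 63.0 in RGd2 at 16 h in N2B27 (N16h), but at 33.0 ± 9.5 and 7.3 ± 2.7 at N72h, and *Atp1a4* was at 201 ± 84.2 and 2.8 ± 2.1. *Crmp1* was at 1512 ± 94.9 and 3709.8 ± 238. Of the neural list, 5 of 9 markers passed the FPKM minimum and 4 were higher, *Pax6*, *Tubb3* (1.81), *Sox11* (0.93) and *Cdh2* (0.53, called in 1 of 6 fits without a library), and 2 members of the list were higher without libraries 13 and 12. The summed FPKM of the 9 was 70.3 to 74.7 in ETR-tKO, 23.9 to 26.3 in ER-dKO and 87.8 to 104 in RGd2 at N72h. *Pax3* was at 3 counts or fewer in every library of both mutants.

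Of the markers of other lineages, those of mesendoderm and primitive endoderm were mostly under the FPKM minimum. Of 11 mesendoderm markers, 3 passed the FPKM minimum and 2 were higher. *Cxcr4*, a chemokine receptor gene, was higher by 1.33, with a mean FPKM of 1.23 in ETR-tKO. The summed FPKM of the 11 overlapped between the groups, at 9.35 to 14.1 in ETR-tKO and 12.04 to 12.81 in ER-dKO, and *T*, which belongs to the Wnt target list and not to this one, was lower as given above. Of 8 trophectoderm markers, 6 passed and *Fgfr2*, an FGF receptor (877, 811 and 775 against 97.2, 125 and 97.2; 2.93), and *Tfap2c* (0.54, not called without library 13) were higher. *Cdx2*, also a trophectoderm marker, belongs to the Wnt target list and not to this one, and was lower as given above. Of 9 primitive endoderm markers only *Sparc* passed, and it was higher by 0.74. Of 6 germ cell markers, *Ddx4* (1.05), *Prdm1* (0.89) and *Ifitm3* (0.42, called in 3 of 6 fits without a library) were higher. All 7 markers of 2-cell-like cells were at 3 counts or fewer in every library of both mutants. In bulk RNA, a change in the number of cells that express a gene and a change in its level per cell cannot be told apart.

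Genes of the MEK/ERK pathway were higher in ETR-tKO, although neither medium contained a MEK inhibitor. Of 20 listed genes past the FPKM minimum, 13 were higher and 1 was lower, with a median of 0.50, and 10 were higher without libraries 13 and 12. The immediate-early genes led the list. *Fos* had 131, 125 and 96.3 in ETR-tKO against 16.1, 18.7 and 21.1 in ER-dKO (2.65, standard error 0.35, edgeR adjusted p = 1.52e-07), *Egr1* had 676, 446 and 507 against 107, 102 and 124, and *Junb* had 141, 120.4 and 133 against 24.1, 40.4 and 56.7. RGd2 in 2i, which contains a MEK inhibitor, had 1.2 ± 1.2 (SD, n = 3) for *Egr1*. *Eras*, a constitutively active RAS-like protein of ESCs, had 1276, 1093 and 1194 against 493, 450.3 and 488. *Spry1*, a feedback inhibitor of receptor tyrosine kinases, was lower by −0.92 (151, 149 and 136 against 267, 279 and 278).

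Extracellular matrix, adhesion and cytoskeletal genes were split between large increases and few decreases, with 19 of 33 higher, 3 lower and a median of 0.45. The collagen IV genes *Col4a1* (4095, 5264 and 5053 against 534, 548 and 523; 3.16, standard error 0.57, edgeR adjusted p = 3.60e-05) and *Col4a2* (1309, 1983 and 1733 against 257, 255 and 212; 2.79), the myosin light chain gene *Myl9* (3.44) and the calpain gene *Capn2* (371, 497 and 432 against 75.7, 74.1 and 80.2) increased most. The laminin chain gene *Lama1*, whose product shares the basement membrane with collagen IV, was lower instead, with 480.1, 505 and 511 in ETR-tKO against 5431, 4447 and 4756 in ER-dKO (−3.29, standard error 0.49, edgeR adjusted p = 1.68e-06). *Zyx* (−0.75, chromosome 6) and *Fn1*, fibronectin (−0.41, called in 3 of 6 fits without a library), were lower as well.

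Of 13 Nodal, activin and BMP genes past the FPKM minimum, 6 were lower and 1 was higher, with a median of −0.22, and 4 were lower without libraries 13 and 12. *Lefty2*, a Nodal antagonist that is also a Nodal target, had 1346, 1413 and 1407 in ETR-tKO against 13313, 12125 and 11585 in ER-dKO (−3.15, standard error 0.18, edgeR adjusted p = 7.07e-17). *Nodal* itself was among those not called. The ligand genes *Bmp4* (230.0, 261 and 233 against 867, 692 and 907; −1.77) and *Bmp7* (−1.11) were lower, and *Smad6*, an intracellular BMP inhibitor, was higher by 2.02. Of 16 Notch components and genes repressed by RBPJ, which was targeted in both groups, 6 were higher and 3 lower, or 6 and 7 with TMM. The Notch ligand gene *Jag2* was higher by 1.81, *Prickle1*, a planar cell polarity gene, by 1.50, *Id1* by 0.83 (called in 4 of 6 fits without a library) and *Notch1* by 0.52, whereas *Id4* was lower by −1.70 and *Trh* (distal chromosome 6) and *Cidea* by −0.67 each.

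Lysosomal genes were lower in ETR-tKO. Of 18 past the FPKM minimum, 13 were lower and none was higher, with a median of −0.64, and 10 were lower without libraries 13 and 12. *Ctsc*, cathepsin C, had 61.3, 47.3 and 57.3 in ETR-tKO against 665, 582 and 586 in ER-dKO (−3.45, standard error 0.20, edgeR adjusted p = 1.04e-16). *Cd63*, a tetraspanin of late endosomes, had 231, 179 and 212 against 971, 806 and 980.0, *Hexa*, the α subunit of β-hexosaminidase, had 473, 501 and 497 against 1585, 1453 and 1622, and *Ctsl*, cathepsin L, had 1358, 1649 and 1430.5 against 4303, 4149.8 and 4157. The groups did not overlap for 17 of the 18 genes, beside 47.4% of all genes past the FPKM minimum. RGd2 cells had 2313 ± 103 of *Hexa* and 4497 ± 274 of *Ctsl* in 2i (SD, n = 3), and 344 ± 37.5 and 1547 ± 129 at N16h (SD, n = 3).

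Glycolytic and pentose phosphate genes moved less but in the same direction, with 14 of 21 lower, 1 higher and a median of −0.38. Without library 13, 9 were lower, and without libraries 13 and 12, 6 were. *Ldha*, lactate dehydrogenase A, had 6809.6, 5886 and 5821 in ETR-tKO against 16982, 13634 and 14085 in ER-dKO (−1.27, standard error 0.13, edgeR adjusted p = 2.30e-10), and *Pfkp*, a phosphofructokinase, had 5193, 6151 and 6489 against 14015, 11667 and 12957 (−1.12). *Pgk1* (−0.76) and *Tpi1* (−0.63, distal chromosome 6) were lower, and the glucose transporter gene *Slc2a1* was higher by 0.45. Of 22 genes of cholesterol and fatty acid synthesis, 5 were higher and none lower, with a median of 0.08, led by *Fdps* (0.77) and *Hmgcs1* (0.56). Of 6 glycogen genes 1 was higher (16.7%, near the 14.6% of all genes), *Pygb* (0.33, called in 2 of 6 fits without a library). Of 17 genes of amino acid stress and serine synthesis 2 were higher, *Ddit4* (1.57) and *Sesn2* (0.54), and 1 was lower, *Asns* (−0.67, chromosome 6), shares of 11.8% and 5.88% that lie below those of all genes. None of the 10 mitochondrial transcripts past the FPKM minimum was called, with a median of −0.20, and 3 were lower with TMM.

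p53 targets were higher in ETR-tKO. Of 12 genes, 10 were called higher and 1 lower, with a median of 0.70, and 9 were higher without libraries 13 and 12. *Perp*, a p53-induced membrane protein of desmosomes, had 1685, 929.6 and 892 in ETR-tKO against 146, 159 and 168 in ER-dKO (2.89, standard error 0.18, edgeR adjusted p = 3.67e-16). *Bbc3* (PUMA), a pro-apoptotic BH3 protein, had 1186, 1263 and 1238 against 380.0, 368 and 394 (1.69, standard error 0.19, edgeR adjusted p = 4.09e-09). *Mdm2*, the ubiquitin ligase for p53, had 5034, 5292 and 5119 against 2601, 2582 and 2704, and *Ccng1*, cyclin G1, had 15145, 15507 and 15461 against 7612, 8324 and 8132. *Cdkn1a* (p21), the cell cycle inhibitor of the p53 response, was lower instead, with 363, 357 and 381 against 643, 554 and 669.8 (−0.76, standard error 0.15, edgeR adjusted p = 1.14e-04). The groups did not overlap for any of these 5 genes, nor for 47.4% of all genes past the FPKM minimum. Of 15 G1 regulators past the minimum, 7 were higher and 1 was lower, with a median of 0.48. The retinoblastoma family genes *Rb1* (689.5, 909 and 847 against 275, 303 and 319.9; 1.44) and *Rbl2* (1.02) and the CDK inhibitors *Cdkn2b* (p15, 1.91) and *Cdkn1b* (p27, 0.77, distal chromosome 6) were higher, and *Cdk6*, a G1 kinase, was lower (869, 1029 and 957 against 2527, 2508 and 2639; −1.43). With TMM, 5 of these 15 were lower.

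**Figure D4:**
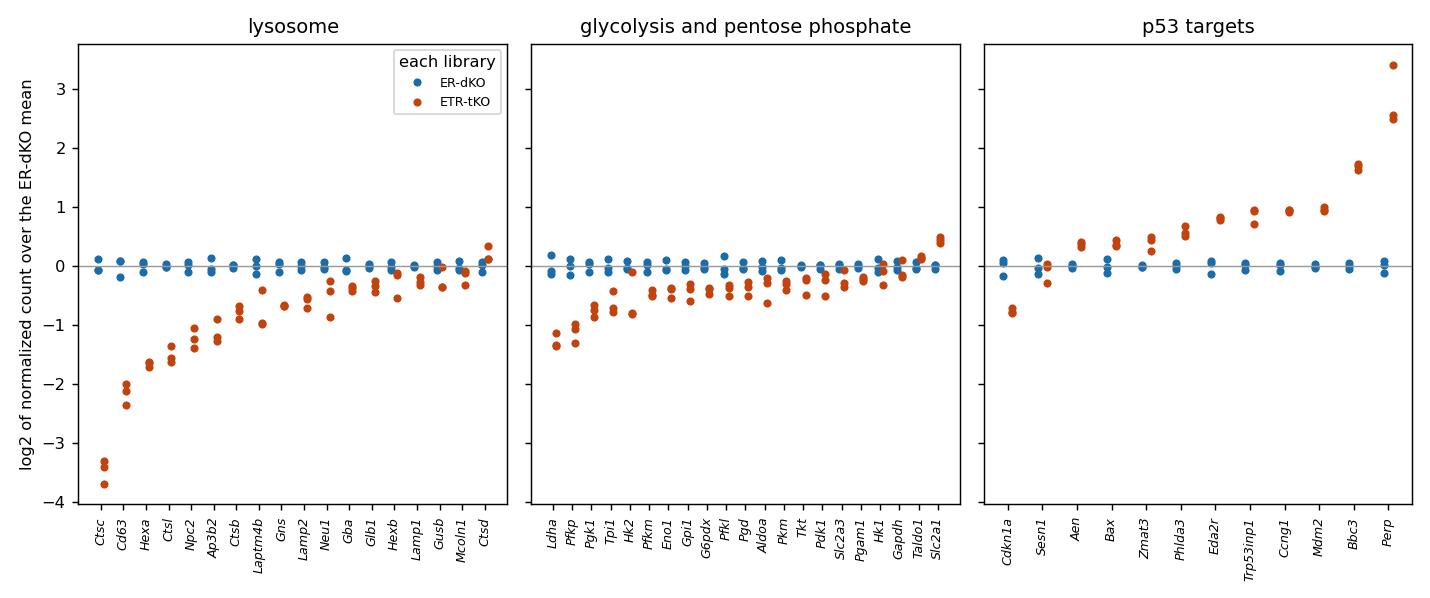
Log2 ratio of the normalized count to the ER-dKO mean for lysosomal genes, glycolytic and pentose phosphate genes and p53 targets, with each ER-dKO library in blue and each ETR-tKO library in red. Most lysosomal and glycolytic genes lie below 0 in all 3 ETR-tKO libraries, and 10 of 12 p53 targets lie above 0 while *Cdkn1a* lies below.

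Imprinted genes differed between clonal lines as well as between groups, with 7 of 19 higher, 2 lower and a median of 0.36. *Peg3* had 2631, 5399 and 5297 in ETR-tKO against 1447, 1606 and 1570.5 in ER-dKO (1.53), *Ndn* was higher by 1.53 and *Nnat* by 1.49. *H19* had 114, 41.9 and 65.3 against 25.5, 25.4 and 6.5 (1.90) and lost its call without library 13. *Plagl1* ranged from 392 in library 13 to 2334 and 2825 in the other ETR-tKO libraries and from 4231 to 8479 in ER-dKO, a log2 fold change of −1.66 (standard error 0.35, edgeR adjusted p = 3.97e-04).

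The largest decreases outside the Wnt targets were in genes of varied function. *Pglyrp1*, a peptidoglycan recognition protein, had 2.4, 0 and 0.80 in ETR-tKO against 199.7, 184 and 238 in ER-dKO, with 5 reads against 1085, a ratio of 154 in favor of ER-dKO (95% exact interval 65.8 to 475, counting error only). Its fitted log2 fold change was −7.20, or −8.50 without library 13. *Zfpm2* (FOG2), a cofactor of GATA factors, had 7.9, 9.7 and 7.2 against 525, 543 and 496 (−5.99). *Sh2d4b*, which encodes an SH2 domain protein, had 53.4, 93.5 and 92.3 against 904, 800.0 and 865, and *St8sia6*, a sialyltransferase gene, had 96.5, 171 and 156 against 1383, 1384 and 1630.4. With *Sp5*, *Nkx1-2*, *Cdx2*, *T*, *Cdx1* and *Ctsc* they make up the 10 largest decreases by the same rule. *Zfpm2* and *Pglyrp1* were at 6.8 ± 5.2 and 3.7 ± 2.8 in RGd2 at N16h and at 151 ± 39.7 and 529 ± 57.2 in RGd2 in 2i (SD, n = 3).

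**Figure D5:**
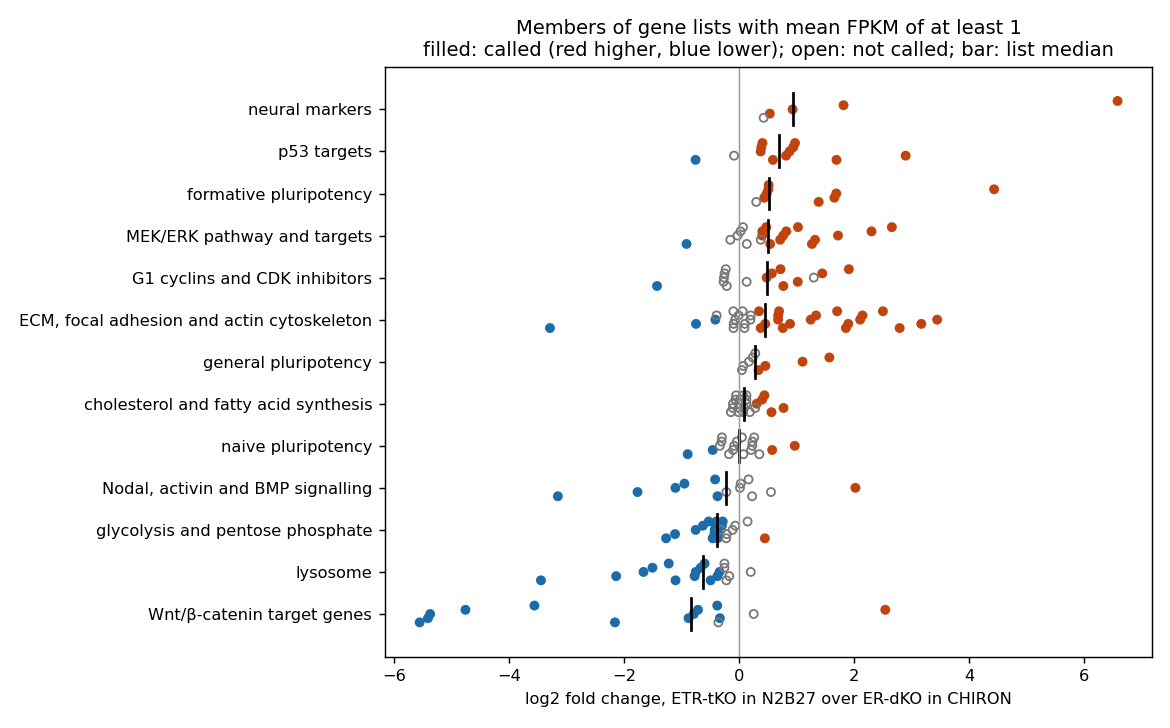
Log2 fold change of ETR-tKO over ER-dKO for each member of 13 gene lists past the FPKM minimum; filled dots were called (red higher, blue lower), open dots were not, and black bars are list medians. Wnt targets and lysosomal genes lie mostly left of 0, p53 targets and formative genes mostly right of 0, and naive genes around 0.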

How the data were processed

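Per the protocol in the labels, total RNA was depleted of ribosomal RNA, although the molecule field of the same labels says polyA RNA. It was spiked with ERCC transcripts and sequenced as strand-specific paired-end libraries. Per the labels and the methods of the study, adapter trimming by the authors used Trim Galore, alignment to mm10 used TopHat2, and featureCounts gave the deposited raw counts for 51826 genes and 92 spike-ins. From the deposited counts, size factors were computed here as median of ratios over the spike-ins, normalized counts by dividing by them, and FPKM and log2 CPM (pseudocount 0.5) from the gene counts. edgeR 4.0.16 fitted its quasi-likelihood model to all 32 libraries after filterByExpr, and p-values were adjusted by Benjamini-Hochberg over the 19037 genes tested. The test itself gives no standard error. Each standard error printed is the absolute unshrunk log2 fold change divided by the square root of the F statistic, and is approximate at low counts. A gene was called at an adjusted p under 0.05 where its FPKM averaged 1 or more in ETR-tKO or in ER-dKO. Tested on simulated data of this comparison, the fit recovered 52 of 67 genes changed 1.5-fold, 65 of 67 changed 2-fold and 66 of 66 changed 4-fold, with 4 other calls among 18969 genes. Only genes above a minimum mean count were changed, and each simulated library was drawn independently around its group mean. Neither a shared origin of lines nor a raised chromosome was simulated, so these rates may not hold for the real libraries. R 4.3.3, DESeq2 1.42.0 and Python 3.11.15 were also used.

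Groups were taken from the sample labels, which list 3 RGd2 libraries at N16h where the methods of the study speak of 2. Genes were named by rule: the 3 targeted genes, up to 4 called members per direction of each of 26 gene lists together with pluripotency genes and Wnt targets of the study, and the 10 largest changes per direction among genes called also with TMM and without each library. That last ranking took only genes whose groups did not overlap. It left out symbols of Gm with digits or ending in Rik, and genes under 10 counts in every library of the higher group. Members of the Wnt target list that were not called, and *Nodal*, *Pax3*, *Fgf5*, *Sox3*, *Klf4*, *Klf5*, *Nr5a2*, *Tcl1*, *Sox2* and *Pou5f1*, are named for their place in a list. The members and lists were chosen with earlier results of these data known. Alternatives were TMM, median of ratios on the genes, total spike-in count, DESeq2, a fit of 6 libraries, other count filters, no FPKM minimum, a minimum log2 fold change of 1, chromosome 6 left out, and each library left out. Promoter sequences and protein-coding positions are from RefSeq and Gencode on GRCm38. Intervals of count ratios cover counting error only. Some members of the lists are not reported here by name.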

Additional observations from a re-analysis of the deposited data

Results flagged for a closer look

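For 14 Wnt/β-catenin targets, the log2 change from ER-dKO in CHIRON to ETR-tKO in N2B27 differed from the log2 difference between RGd2 at N72h and RGd2 in CHIRON at passage 2, by the test of the difference itself (edgeR quasi-likelihood test, Benjamini-Hochberg adjusted p under 0.05). The difference (mutants minus RGd2) was positive for 12 targets. It was 1.02 for *Axin2* (adjusted p = 1.61e-04), 3.38 for *Notum*, 4.05 for *Tnfrsf19*, 2.31 for *Nkx1-2* and 2.82 for *Dact1*, with 12 libraries in the 4 groups. It was 4.25 for *Sp8*, 4.35 for *Msx1* and 3.91 for *Msx2*, which were under the FPKM minimum in both mutants. It was 3.46 for *Sp5*, 5.93 for *Cdx1* and 4.62 for *T*, whose counts at N72h were near 0, and 0.998 for *Lef1*, which was also under the FPKM minimum in both mutants. The difference was negative for *Tcf7* (−0.98) and *Fzd7* (−1.24). *Sp5* was not called without ETR-tKO library 13 (2.10) or without RGd2 N72h library 9 (2.82), and *Lef1* was not called without ETR-tKO library 13 (0.56). The cultures compared differ in passage number, in time without inhibitor and in naive gene expression, the summed FPKM of 18 naive genes being 111 to 121 at N72h and 494 to 531 in RGd2 in CHIRON against 1093 to 1255 over the mutants. The part of these in the differences was not tested.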

How the results depend on the processing

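The number of genes called lower, 1144, was 2407 with TMM, 2178 with median of ratios on the genes, 548 without libraries 13 and 12, and 183 with a minimum log2 fold change of 1. The number of genes called higher, 1696, was 2746 without the FPKM minimum and 539 with the minimum fold change. Leaving out 1 library gave 722 to 1080 lower and 1325 to 1668 higher genes, and DESeq2 gave 1234 and 1779. Of 14 Wnt targets with a called difference of differences, 12 to 14 were called without a library. The spike-in share, ETR-tKO minus ER-dKO in percent, was −0.00755 to 0.050 without a library. Of 118 called named genes, 96 kept their call and 22 lost it at least once with TMM, DESeq2, the fit of 6 libraries, each library left out, or 13 and 12 left out, and none changed sign there. The other alternatives were run for the counts of calls only. Among those not called, signs changed for *Etv5* (−0.18 to 0.39 without a library, −0.17 without 13 and 12), *Rbpj* (−0.21 to 0.76 without a library), *Esrrb* (−0.050 to 0.17 without a library, −0.0042 with TMM), *Tfcp2l1* (−0.16 to 0.13 without a library, 0.15 without 13 and 12), *Zfp42* (−0.15 to 0.022, and 0.030), *Il6st* (−0.19 to 0.016, and 0.034) and *Fgf4* (−0.00073 with TMM). Differences of differences that changed sign were those of *Nkd1* (−0.14 to 0.37 without a library), *Znrf3* (−0.19 to 0.0018), *Ccnd1* (−0.11 to 0.046) and *Apcdd1* (−0.35 to 0.15). The causes were not tested. No paired analysis was possible because the groups share no replicate number. Genotype and medium cannot be told apart, because every ETR-tKO library lacks CHIRON and every ER-dKO library contains it.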
